A study of Homo sapiens with 13 samples.

Results

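The transcripts described here are those of IRF4, MYC, NCL, NPM1 and TFRC, followed on 13 spotted cDNA arrays of myeloma cells in which a hairpin RNA against IRF4 was induced. The members are all array features whose annotated symbol is one of these 5 genes: 13 of the 15246 features, and 5 of the 4604 genes with a name. IRF4 and MYC each had 4 features, NPM1 and TFRC 2 each, and NCL 1. A feature is a cDNA clone spotted on the slide, and features are called here by the number the platform gives them. Of the 13 features, 10 were measured on enough arrays to be tested (at least 10 of the 13 arrays and 2 of the 3 arrays of each KMS12 group named below), and at least 1 feature of every gene passed.

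IRF4 is a transcription factor of B cells and plasma cells that binds DNA alone or beside ETS and BATF proteins, and plasma cells need it to form and to survive. MYC is a transcription factor that, paired with MAX, raises genes for ribosome making, metabolism and cell division, and its deregulation is a common feature of myeloma. NCL (nucleolin) and NPM1 (nucleophosmin) are abundant proteins of the nucleolus, where ribosomes are built, and TFRC is the transferrin receptor, through which growing cells take up iron. NCL, NPM1 and TFRC are all known targets of MYC.

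Each array compared 2 infected cultures of 1 myeloma line, the culture with an IRF4 hairpin in Cy5 and the culture with the control hairpin shluc in Cy3, so negative log2 ratios stand for transcripts scarcer in the IRF4 hairpin culture. In KMS12, 3 culture series named for their hairpins, 1332, 1332b and 2046, each gave 1 array of uninduced cultures, taken without doxycycline (3 arrays). After doxycycline at 20 ng/ml, series 1332 was sampled on days 3, 5 and 7, and the remaining pair of series on days 2 and 4, which gave 3 arrays at days 2-3, 3 at days 4-5 and 1 at day 7. H929 with hairpin 2046 was sampled at day 4 on 2 arrays, called repeats 1 and 2, and SKMM1 with hairpin 2046 at day 4 on 1 array. The labels do not say whether repeats or series were separate infections, so p-values here cover only array-to-array spread, part of which may be technical. The day within a KMS12 window and the hairpin both cannot be told apart from the series. With bulk RNA, fewer cells of a type and less RNA per cell cannot be told apart, and a ratio does not give the level of a transcript.

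The arrays measured between 7140 and 14228 features each. Over all the features it measured, each array had a median between -0.076 and 0.012. Over the tested features alone the medians differed more. Series 2046 uninduced had a median of 0.28 over these before centring, and the other 12 arrays lay between -0.16 and 0.03. All log2 ratios below were therefore centred on the median tested feature of their array. Without centring the median of the tested features would shift by -0.20 at days 2-3 and -0.16 at days 4-5 against uninduced. Of the 10 plasma cell markers listed for this work, IRF4 among them, all had a feature. Apart from IRF4, 7 of 9 lay below 0 at days 2-3 against uninduced and 9 of 9 at days 4-5, with medians of -0.59 and -0.34, and 0 passed the test. Of all genes 46.2% and 47.2% lay below 0, with medians of 0.05 and 0.02.

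The start regions of 4 of the genes show which promoter letters lie beside the measured transcripts. Each line gives the 100 bases before the transcription start in RefSeq on GRCh38.p14, 5′ to 3′ on the gene's strand, with TATAA, the core of the TATA box, in capitals. IRF4 is at chr6:391652-391751 (+), NCL at chr2:231464485-231464584 (-), NPM1 at chr5:171387749-171387848 (+, the downstream one of its 2 listed starts) and TFRC at chr3:196082091-196082190 (-).
IRF4: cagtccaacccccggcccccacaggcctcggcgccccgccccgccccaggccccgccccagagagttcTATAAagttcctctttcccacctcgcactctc
NCL: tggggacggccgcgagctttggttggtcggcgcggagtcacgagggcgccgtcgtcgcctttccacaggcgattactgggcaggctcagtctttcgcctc
NPM1: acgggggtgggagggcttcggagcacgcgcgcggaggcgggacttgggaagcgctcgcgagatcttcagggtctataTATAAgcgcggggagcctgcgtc
TFRC: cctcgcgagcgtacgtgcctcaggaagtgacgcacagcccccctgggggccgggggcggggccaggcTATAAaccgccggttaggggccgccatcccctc

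TATAA began 32 bases before the start in IRF4, 23 in NPM1 and 33 in TFRC, and was not in the NCL stretch. On the gene's strand, 6.72% of 35116 RefSeq promoters hold these letters in the same 100 bases. GC made up 70.0% of the stretch in IRF4, 67.0% in NCL, 67.0% in NPM1 and 73.0% in TFRC. In the 300 bases from 250 before to 50 after each start, 3 motifs were searched on both strands: the E-box CACGTG that MYC and MAX bind, the ETS and IRF composite element (GGAA, any 2 bases, GAAA), and the interferon response letters (GAAA, any 2 bases, GAAA). None of the 3 was in the window of any of the 4 genes, against 7.26%, 2.82% and 3.57% of all promoters. This says only that these letters are not in these windows.

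IRF4, the targeted gene, was the first check of the labels. Before induction its gene mean stood at 0.24 in series 1332, 0.13 in 1332b and 0.17 in 2046 (mean 0.18 ± 0.06, SD, n = 3), slightly above the control culture. At days 2-3 it was -1.15, -1.78 and -1.03, or 45.2%, 29.1% and 48.8% of the control. At days 4-5 it was -0.59, -0.64 and -0.75, or 66.5%, 64.4% and 59.5%, and at day 7 of series 1332 it was -0.76, or 59.0%. H929 stood at -1.79 and -1.96 (28.9% and 25.7%) and SKMM1 at -2.02 (24.6%). All 10 induced arrays lay below 0 and below every uninduced array. Of the 2654 genes measured on all 10 induced arrays, 66 (2.49%) were below 0 on all 10, and 56 (2.11%) were below every uninduced array on all 10.

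The IRF4 ratios formed an order. SKMM1, both H929 arrays and series 1332b at day 2 were the lowest, between -2.02 and -1.78. Series 1332 at day 3 and 2046 at day 2 followed, and the later KMS12 arrays, days 4, 5 and 7, lay between -0.76 and -0.59, closer than the arrays of days 2-3 lay to each other. Series 1332b differed most between its days, from -1.78 at day 2 to -0.64 at day 4, a step of 1.14. The step was 0.56 in series 1332 from day 3 to day 5 and 0.29 in series 2046 from day 2 to day 4. The IRF4 ratio was thus higher in the later window in 3 of 3 series, by 0.66 on average (SE 0.21), and limma's adjusted p was 0.197. The days 2-3 arrays of series 1332, 1332b and 2046 had SDs of 0.75, 0.79 and 0.46 over the tested features. Those of days 4-5 had 0.49, 0.41 and 0.41. With the arrays scaled to one spread the IRF4 difference was 0.33.

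**Figure D1:**
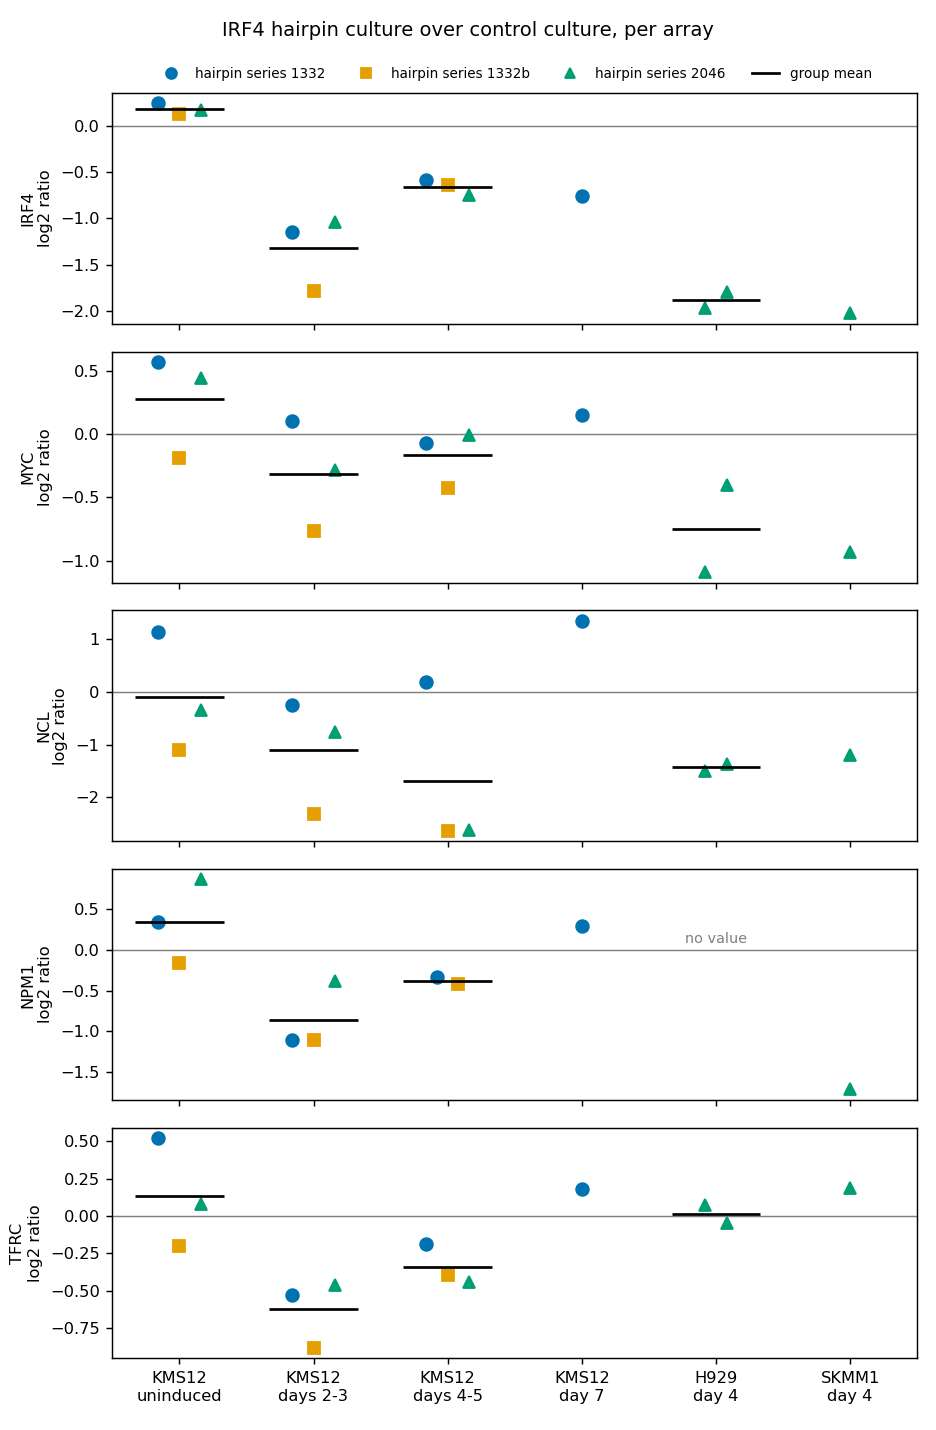
Log2 ratio of the IRF4 hairpin culture over the control culture (y axis, its own scale for each gene) for the 5 genes in the 6 groups of arrays; each symbol is 1 array, its colour and shape give the series, and bars are group means. IRF4 is below 0 on all 10 induced arrays, whereas NCL spreads from -2.63 to 1.35 over them and TFRC stays between -0.05 and 0.19 in H929 and SKMM1.

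The 2 tested IRF4 features did not rank the arrays alike. Features 16614_1 and 35916_1, each on 13 arrays, differed by 0.25 at the median and by at most 0.43 (series 1332 day 5), with a correlation of 0.96 across the 13 arrays, a description of arrays that share each RNA. Series 1332 day 5 was the highest induced array for 16614_1 (-0.38) but read -0.80 for 35916_1, and the lowest array was H929 repeat 2 for 16614_1 (-2.15) and SKMM1 for 35916_1 (-2.01). The other two IRF4 features were measured too rarely to be tested. Feature 22122_1, on 7 arrays, was 0.36 and 0.13 on the uninduced arrays of series 1332 and 1332b and between -1.34 and -0.57 on 5 induced arrays. Feature 24729_1, on 6 arrays, was 0.19 and -0.20 on those uninduced arrays and between -0.86 and -0.34 on 4 induced arrays. Both were unmeasured on the H929 and SKMM1 arrays.

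MYC, whose product drives growth, had smaller ratios than IRF4 and a wider spread before induction. Its gene mean over 4 features stood at 0.57, -0.19 and 0.44 on the uninduced arrays of series 1332, 1332b and 2046 (0.27 ± 0.40, SD, n = 3). Days 2-3 gave 0.10, -0.77 and -0.28, or 107%, 58.8% and 82.2% of control (-0.32 ± 0.43, SD, n = 3). Days 4-5 gave -0.07, -0.43 and -0.01, or 95.3%, 74.4% and 99.6% (-0.17 ± 0.23, SD, n = 3). The groups overlapped, since the uninduced array of series 1332b lay below 3 of these 6 induced arrays. Within each series, however, every induced array stood below its own uninduced array. The differences were -0.47, -0.64 and -0.42 at days 3, 5 and 7 of series 1332, -0.58 and -0.24 at days 2 and 4 of 1332b, and -0.73 and -0.45 at days 2 and 4 of 2046. Such a pattern on all 7 induced KMS12 arrays was seen in 217 of 3159 genes (6.87%). MYC on the day 7 array was 0.15, or 111% of control.

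MYC lay lowest on H929 repeat 2 and SKMM1, while H929 repeat 1 lay above both induced arrays of KMS12 series 1332b. H929 repeat 1 stood at -0.41 (75.4% of control), repeat 2 at -1.09 (47.0%), and SKMM1 at -0.93 (52.4%). The H929 repeats were 0.68 apart, more than the distance between the means of H929 and KMS12 days 4-5. In the order of all 13 arrays, H929 repeat 2, SKMM1 and series 1332b at day 2 were the lowest for MYC, and the uninduced arrays of series 1332 and 2046 the highest.

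All 4 MYC features passed the filter, and their signs agreed on most arrays. Below 0 on the induced arrays were 8 of 10 values of feature 15841_1, 8 of 9 of 19381_1, 9 of 10 of 28401_1 and 6 of 10 of 29723_1. Pairs of MYC features correlated at 0.83 to 0.94 over 12 or 13 arrays. The range over the 4 was 0.27 at the median array and widest, 0.90, at day 3 of series 1332. There feature 29723_1 read 0.52, 19381_1 read 0.34, 28401_1 read -0.09 and 15841_1 read -0.37. The MYC value of 0.10 on that array is therefore the mean of features of opposite sign. Fitted alone, the features gave days 2-3 differences from uninduced between -0.75 (28401_1, limma adjusted p = 0.121) and -0.44 (29723_1, limma adjusted p = 0.477).

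**Figure D2:**
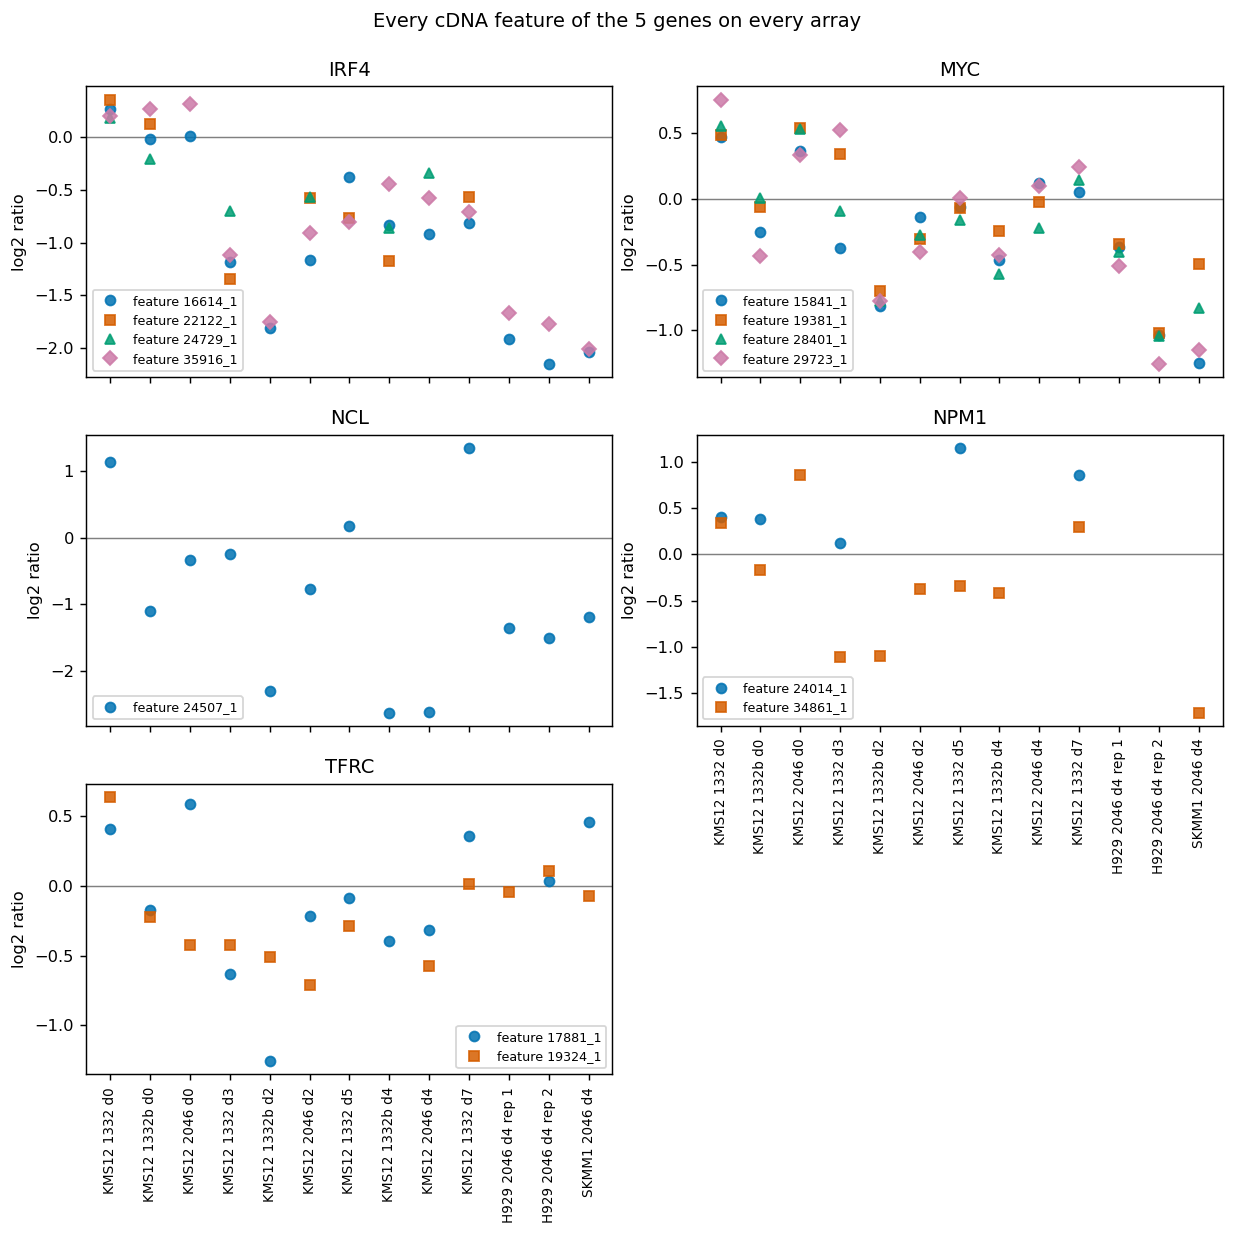
Log2 ratio (y axis) of each of the 13 features on each of the 13 arrays (x axis: line, hairpin series, day), with 1 symbol per feature and no symbol where a feature was not measured. The IRF4 features 16614_1 and 35916_1 stay within 0.43 of each other, the MYC features spread by 0.90 at day 3 of series 1332, and the TFRC features lie 1.01 apart on the series 2046 uninduced array.

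NCL, nucleolin, was the most variable of the 5 genes, and rests on 1 feature, 24507_1, measured on all 13 arrays. On the uninduced arrays it already ranged from 1.14 in series 1332 through -0.34 in 2046 to -1.10 in 1332b, or 220%, 79.2% and 46.7% of control. Days 2-3 gave -0.24, -2.31 and -0.77 in the same order of series as above (1332, 1332b, 2046), or 84.7%, 20.2% and 58.8%. Days 4-5 gave 0.18 in series 1332 but -2.63 in 1332b and -2.62 in 2046, which are 113%, 16.1% and 16.3%. The day 7 array of series 1332 was the highest of the 13, at 1.35 or 255%. Series 1332 was thus above both other series in each window, and the groups overlapped.

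Taken within series, NCL lay below its own uninduced array on 6 of 7 induced KMS12 arrays. The difference was -1.38 at day 3 and -0.96 at day 5 of series 1332, -1.21 and -1.53 at days 2 and 4 of 1332b, and -0.43 and -2.28 at days 2 and 4 of 2046. Day 7 of series 1332 lay 0.21 above. Counted on the 6 arrays of days 2-5 alone, IRF4, MYC, NCL and TFRC were each below their own uninduced array on 6 of 6, and NPM1 on the 5 that measured it. That held for 290 of the 3325 genes measured on those arrays (8.72%). In H929 NCL stood at -1.36 and -1.50 (38.9% and 35.3% of control) and in SKMM1 at -1.19 (43.9%), between the KMS12 extremes.

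NPM1, nucleophosmin, was tested on feature 34861_1, measured on 10 arrays and on neither H929 array. Its uninduced ratios were 0.34, -0.17 and 0.86 in series 1332, 1332b and 2046. At days 2-3 they were -1.11, -1.10 and -0.38, or 46.4%, 46.6% and 77.0% of control, all below every uninduced array. At days 4-5, without series 2046, they were -0.34 and -0.42, or 79.1% and 74.8%, again below every uninduced array. Day 7 of series 1332 read 0.30, within 0.04 of the uninduced array of that series. SKMM1 was the lowest of the 10, at -1.71 or 30.5%.

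The other NPM1 feature read differently. Feature 24014_1 had values on 5 arrays, all of series 1332 but one, and all above 0. It was 0.40 and 0.39 on the uninduced arrays of series 1332 and 1332b, and 0.12, 1.15 and 0.86 at days 3, 5 and 7 of series 1332. At day 5 the 2 NPM1 features were 1.49 apart, with opposite signs. In both, day 3 was the lowest of the series 1332 arrays. NPM1 has processed pseudogenes, and no clone sequence was used here to tell which copies each feature can bind. The NPM1 results below hold for feature 34861_1 alone.

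TFRC, the transferrin receptor, had 2 features, each measured on 12 arrays. Its gene mean on the uninduced arrays was 0.52, -0.20 and 0.08 in series 1332, 1332b and 2046. Days 2-3 gave -0.53, -0.88 and -0.46, or 69.4%, 54.2% and 72.6% of control, each below every uninduced array. Days 4-5 gave -0.19, -0.39 and -0.44, or 87.8%, 76.1% and 73.5%, and the uninduced array of series 1332b lay just below the first of these. Day 7 read 0.18. TFRC differed from the other members in H929 and SKMM1, where it stood near the control: -0.05 and 0.07 on the H929 arrays and 0.19 in SKMM1, or 96.9%, 105% and 114%.

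The TFRC features were less alike than those of IRF4 and MYC, with a correlation of 0.53 over the 11 arrays that had both. Feature 17881_1 read 0.59 and 19324_1 read -0.42 on the series 2046 uninduced array, a gap of 1.01. In SKMM1 they read 0.45 and -0.08. Alone, 17881_1 differed from uninduced by -0.97 at days 2-3 (limma adjusted p = 0.0904) and 19324_1 by -0.54 (limma adjusted p = 0.241).

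The KMS12 windows were compared with the uninduced arrays by limma across all 4728 genes and unnamed features. At days 2-3 the difference was -1.50 for IRF4 (SE 0.21), -1.21 for NPM1 (SE 0.30), -1.01 for NCL (SE 0.78), -0.76 for TFRC (SE 0.22) and -0.59 for MYC (SE 0.29). IRF4 had the smallest p of all genes. The limma adjusted p was 0.0764 for IRF4, 0.0795 for NPM1, 0.0819 for TFRC, 0.219 for MYC and 0.423 for NCL. No member passed the threshold of 0.05, and neither did any other gene: 0 of 4728 (0%) at an adjusted p under 0.05, 1222 (25.8%) at an unadjusted p under 0.05. Every array lay below every uninduced array for IRF4, NPM1 and TFRC, as for 799 of the 4728 genes (16.9%). The median difference over all genes was 0.05.

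The days 2-3 result depended on 1 array and on the processing. Without series 2046 at day 2, IRF4 (-1.64, limma adjusted p = 0.00322), NPM1 (-1.45, 0.0152) and TFRC (-0.84, 0.0482) passed, with 653 genes in all. They also passed without centring, with 339 genes in all. MYC (limma adjusted p at least 0.105) and NCL (at least 0.133) did not pass at days 2-3 under any alternative run. For MYC the difference was -0.37 without series 1332b at day 2. For NCL it was -0.40 without that array and -0.39 without the uninduced array of series 1332.

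At days 4-5, compared with the same uninduced arrays, the difference was -1.59 for NCL (SE 0.78), -0.83 for IRF4 (SE 0.21), -0.72 for NPM1 (SE 0.34, 2 induced arrays), -0.48 for TFRC (SE 0.22) and -0.44 for MYC (SE 0.29). The limma adjusted p was 0.758 for IRF4, 0.810 for NCL, NPM1 and TFRC, and 0.829 for MYC. Again 0 of 4728 passed (0%), with 282 (5.96%) at an unadjusted p under 0.05. NCL had the third lowest difference of all genes, but with an interval from -3.30 to 0.12. Without the day 5 array of series 1332 it was -2.53, and without that series' uninduced array -0.97. Without 1 uninduced array, that of series 1332b for MYC, 2046 for NPM1 and 1332 for TFRC, the differences were -0.67, -0.46 and -0.28. Without the uninduced array of series 1332, MYC was -0.30. With the series as a block NPM1 was -0.47 (limma adjusted p = 0.665). IRF4 and NPM1 lay below every uninduced array on all arrays that measured them, as did 266 of 4728 genes (5.63%).

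**Figure D3:**
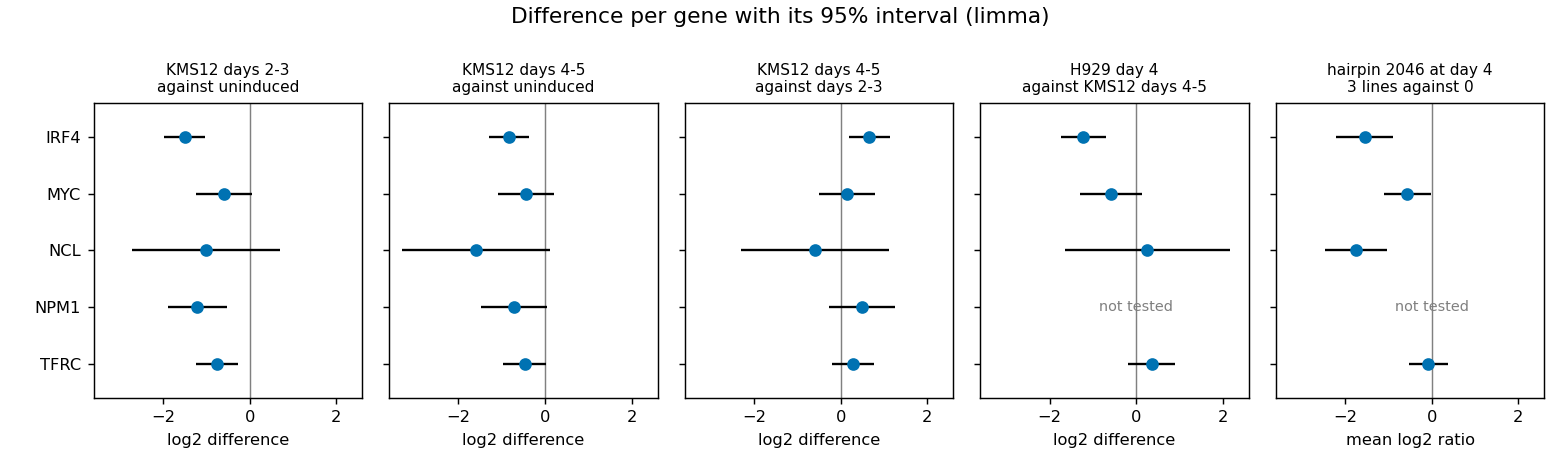
Differences on the log2 scale (x axis) for the 5 genes in 5 comparisons, each with its 95% interval from limma; the last panel gives the mean log2 ratio over 3 lines. For IRF4 the interval lies to the left of 0 in both KMS12 windows (-1.97 to -1.03 and -1.30 to -0.36), while that of NCL reaches past 0 in both, and no member passed after adjustment in any panel.

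With both windows averaged, the difference from uninduced was -1.17 for IRF4 (SE 0.19), again the smallest p of all genes, -1.30 for NCL (SE 0.68), -0.96 for NPM1 (SE 0.27), -0.62 for TFRC (SE 0.19) and -0.52 for MYC (SE 0.25). The limma adjusted p was 0.234, 0.352, 0.242, 0.242 and 0.328 in that order, and 0 of 4728 (0%) passed, against 771 (16.3%) at an unadjusted p under 0.05. Without series 2046 at day 2, IRF4 passed (limma adjusted p = 0.0308) with 85 genes in all. Without the uninduced array of series 1332 the NCL difference was -0.68. IRF4 and NPM1 lay below every uninduced array on all days 2-5 arrays that had them, a pattern of 127 of 4728 genes (2.69%).

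The windows were also compared with each other. Days 4-5 minus days 2-3 gave 0.66 for IRF4, 0.48 for NPM1 (SE 0.34), 0.28 for TFRC (SE 0.22) and 0.15 for MYC (SE 0.29), but -0.59 for NCL (SE 0.78). The limma adjusted p was between 0.197 and 0.812, and 0 of 4728 (0%) passed, with 857 (18.1%) at an unadjusted p under 0.05. Of all genes 48.1% lay below 0, of the members NCL alone. TFRC was higher in the later window in 3 of 3 series, NPM1 in 2 of 2, and MYC in 2 of 3. NCL was lower in 2 of 3, with -0.32 in series 1332b and -1.85 in 2046 against 0.42 in 1332. The MYC sign turned to -0.076 without series 1332b at day 2. The NCL value ran from -1.52 without series 1332 at day 5 to -0.12 without series 1332b at day 4. Scaling the arrays to one spread gave 0.33 for IRF4, 0.25 for NPM1, 0.11 for TFRC, 0.07 for MYC and -1.15 for NCL.

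Series 1332 gave the longest course. The ratio was higher at day 7 than at day 3 by 1.59 for NCL, 1.40 for NPM1, 0.71 for TFRC, 0.39 for IRF4 and 0.05 for MYC, each on 1 array per day. At day 7 the difference from the uninduced array of the series was -0.04 for NPM1 and 0.21 for NCL, while it was -1.0 for IRF4, -0.42 for MYC and -0.34 for TFRC. These steps have no replicate and were not tested.

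Series 1332b and 2046 were taken on the same days. At day 2 series 1332b was lower for all 5 genes, with differences of -0.75 for IRF4, -0.48 for MYC, -1.54 for NCL, -0.72 for NPM1 and -0.42 for TFRC on the log2 scale (1332b minus 2046). Before induction it was also lower for all 5, with -0.04, -0.63, -0.76, -1.03 and -0.28. At day 4 the differences were 0.11 for IRF4, -0.42 for MYC, -0.01 for NCL and 0.05 for TFRC. For MYC and NPM1 the gap before induction was thus larger than that at day 2, with 1 array on each side and no test.

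H929 at day 4 was set against KMS12 days 4-5 in the same model. The difference for IRF4 was -1.22 (SE 0.24, limma adjusted p = 0.0682), with both H929 arrays below all 3 KMS12 arrays. Both H929 arrays lay below every measured KMS12 array for 906 of 3796 genes (23.9%). These 3796 genes had values on both H929 arrays and at least 2 of the 3 KMS12 arrays. The MYC difference was -0.58 (SE 0.33, limma adjusted p = 0.376), with 1 of the 2 H929 arrays below all 3 KMS12 arrays. NCL was 0.26 higher (SE 0.87, limma adjusted p = 0.908) and TFRC 0.35 higher (SE 0.25, limma adjusted p = 0.475). Of all genes 50.4% lay below 0 in this comparison, and of the 4 members tested IRF4 and MYC. Only 2 of 4607 genes (0.0434%) passed, BATF (on 1 H929 array) and SERPINA1, neither a member, and 781 (17%) had an unadjusted p under 0.05. The IRF4 difference passed (limma adjusted p = 0.045) without series 1332b or 2046 at day 2, arrays that enter only through the estimated spread. MYC was -0.24 without H929 repeat 2 and -0.92 without repeat 1. NCL was 1.19 without the day 5 array of series 1332, and turned to -0.21 without either of the other days 4-5 arrays. Line, hairpin and day differ together here except in series 2046.

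Hairpin 2046 at day 4 was the condition that all 3 lines shared. IRF4 was -0.75 in KMS12, -1.88 as the H929 mean and -2.02 in SKMM1 (mean -1.55, SE 0.27). MYC was -0.01, -0.75 and -0.93 (mean -0.56, SE 0.22), NCL -2.62, -1.43 and -1.19 (mean -1.75, SE 0.29), and TFRC -0.44, 0.01 and 0.19 (mean -0.08, SE 0.19). The order of the lines was thus opposite for IRF4 and MYC, with KMS12 highest, and for NCL and TFRC, with KMS12 lowest. Tested against 0 over the 3 lines, the limma adjusted p was 0.214 for IRF4 and NCL, 0.249 for MYC and 0.826 for TFRC. None of 4041 genes (0%) passed, and 774 (19.2%) had an unadjusted p under 0.05. All 4 members tested had means below 0, as had 50.6% of genes. The mean of NCL was the lowest of the 4041 genes, and that of IRF4 the third lowest. A dye effect of a feature stays in this test, since no array had its dyes swapped.

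The KMS12 array decided the 3-line result. Without it, over H929 and SKMM1 alone, IRF4 (-1.95, limma adjusted p = 0.0146), NCL (-1.31, 0.0146) and MYC (-0.84, 0.0254) passed, with 737 genes in all, and TFRC turned to 0.10. Without SKMM1 the TFRC mean was -0.22. TFRC feature 17881_1 alone also turned the sign, to 0.06, and its interval with both features ran from -0.53 to 0.37.

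The other members were set against IRF4 on the induced arrays. MYC had a Pearson correlation with IRF4 of 0.81 over 10 arrays (Spearman 0.60), and 0.62 without the 2 arrays farthest from the median IRF4. Over the 7 KMS12 arrays alone MYC gave 0.61 (Spearman 0.11). NPM1 gave 0.85 over 7 arrays, 0.57 without the 2 farthest and 0.71 over the 6 of KMS12. NCL gave 0.24 over 10 arrays and again within KMS12, and 0.25 without the 2 farthest. TFRC gave -0.19 over 10 arrays, 0.33 without the 2 farthest and 0.75 within KMS12 (Spearman 0.79). H929 and SKMM1 had the lowest IRF4, with TFRC near the control. These correlations describe arrays that share series and array scale, and they carry no test.

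**Figure D4:**
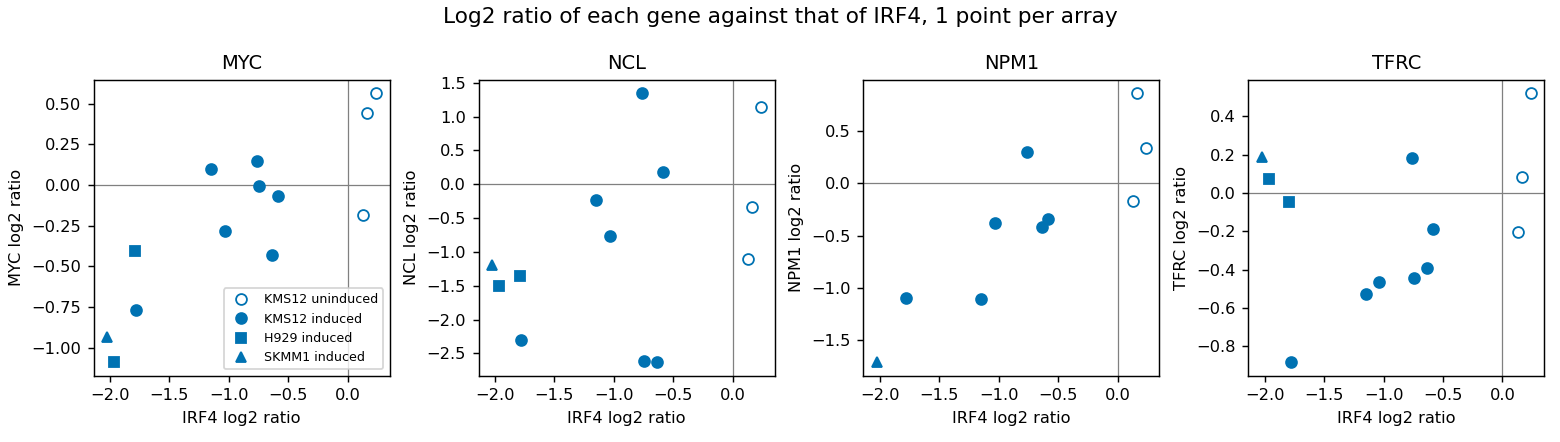
Log2 ratio of MYC, NCL, NPM1 and TFRC (y axes) against that of IRF4 (x axis) on each array; open circles are uninduced KMS12 arrays, and filled symbols induced arrays by line. The 3 arrays of H929 and SKMM1 have IRF4 below -1.7 and lie between -1.09 and -0.41 for MYC, but between -0.05 and 0.19 for TFRC.

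Across the arrays some genes had ratios most like those of a member, by Pearson correlation among 2251 named genes measured on at least 12 arrays. For IRF4 these were FUBP1 (0.94), OLA1, AHCTF1, MAP2K1 and RUNX2 (0.92). For MYC they were YWHAQ (0.98), RAB7A (0.96), USP7, SLC26A2 and RBBP4 (0.95). NCL was closest to MCM4, a subunit of the replicative helicase (0.93), then RCC1, DHX15, SAFB and NIBAN3 (0.84 to 0.82). TFRC was closest to CCNC, cyclin C (0.86), then MMP14, NCAPG2, ITGA4 and GTF2H1 (0.84 to 0.83). No other member was among the 5 of any gene: the members correlated with each other at 0.26 to 0.87, highest for IRF4 with NPM1 (10 arrays) and lowest for IRF4 with TFRC (13 arrays).

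Other nucleolar genes lay on both sides of 0. Of 63 genes of nucleolar ribosome assembly listed for this work, 12 besides the members could be tested in KMS12. Against uninduced, 0 passed in either direction in either window, 7 of 12 lay below 0 at days 2-3 and 9 of 12 at days 4-5, with medians of -0.09 and -0.11, where all genes had 0.05 and 0.02. The share of all genes below 0 was 46.2% and 47.2%. DDX21, a nucleolar RNA helicase, was -1.59 at days 2-3 (SE 0.39, limma adjusted p = 0.0764) and -0.34 at days 4-5 (SE 0.39). WDR36, a protein of the small subunit processome, was -1.41 (SE 0.31) and then 0.17 (SE 0.31). NPM3, a nucleophosmin relative, was -0.63 and -0.19, and NOLC1, a nucleolar chaperone of small nucleolar particles, -0.45 and -0.24.

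DDX21 and WDR36 were low early and closer to 0 later. DDX21 was 0.16, -0.37 and 0.67 on the uninduced arrays of series 1332, 1332b and 2046, -1.51, -2.28 and -0.52 at days 2-3, and -0.04, -0.17 and -0.36 at days 4-5. WDR36 was -0.39, 0.23 and -0.20 on the uninduced arrays, -2.10, -1.64 and -0.85 at days 2-3, and 0.26, 0.10 and -0.21 at days 4-5. For both genes all 3 days 2-3 arrays were below the uninduced ones, as for 799 of 4728 genes (16.9%). Those of days 4-5 were not all below, whereas for 266 of 4728 genes (5.63%) they were. Both genes were named for a small p in these same data. NCL was lowest at day 4 in series 1332b and 2046. In the other lines the list was mixed: DDX21 was -0.80 and -1.09 in H929 and -1.38 in SKMM1, whereas WDR36 was 1.20 on the 1 H929 array that measured it. In H929, 9 of the 12 genes lay above 0 with a median of 0.24, and in SKMM1 5 of 10 with a median of 0.02.

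RNA polymerase I, which transcribes ribosomal RNA, had 4 testable genes of 15, with medians of -0.19 and 0.01 in the early and late windows. TAF1D, part of its promoter selectivity factor, was -1.10 (SE 0.24, limma adjusted p = 0.0764) and -0.03, and the subunit POLR1C was -0.34 and -0.17. TAF1C (0.14 and 0.06) and POLR1D (-0.05 and 0.09) stood near 0. None of the 4 passed in either KMS12 window.

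Of the MYC growth targets outside the nucleolus, 16 besides TFRC were testable. At days 2-3, 12 of 16 lay below 0 with a median of -0.16, at days 4-5 14 of 16 with a median of -0.23, and 0 passed in either direction. Over all genes 46.2% and 47.2% lay below 0, with medians of 0.05 and 0.02. The translation factor EIF4E was -1.04 (SE 0.27, limma adjusted p = 0.0795) and then -0.23. The amino acid transporter SLC7A5 was -0.06 and then -0.65, RAN, the nuclear transport GTPase, -0.37 and -0.19, and LDHA, lactate dehydrogenase, -0.45 and -0.30. EIF4E was also low in the other lines, -1.01 and -1.49 on the H929 arrays and -1.84 in SKMM1. Of the 16 genes, 7 lay above 0 in H929 (median -0.07) and 8 in SKMM1 (median 0.01).

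The MYC network, the partners and opponents of MYC, lay the other way at the median: 0.16 and 0.13 over 7 testable genes, of which 2 and 3 were below 0. The medians over all genes were 0.05 and 0.02, with 46.2% and 47.2% below 0. MXD3 and MXD4, which compete with MYC for MAX, were 0.65 and 0.60 at days 2-3 and 0.46 and 0.29 at days 4-5. MXD1, of the same family, was 0.20 and 0.47, and SKP2, a ubiquitin ligase subunit that acts on MYC, -0.41 and -0.34. None passed (limma adjusted p of at least 0.166 at days 2-3 for these 4 genes).

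For iron, only FTL, ferritin light chain, and HMOX1, heme oxygenase, were testable beside TFRC. FTL was 0.32 and 0.10 and HMOX1 0.25 and 0.37 in the early and late windows, on the other side of 0 from TFRC, and neither passed. Among 6 testable genes of the IRF family and its partners, the medians were 0.15 and 0.07 and 0 passed in the KMS12 windows. BATF, which binds DNA with IRF4, was 0.50 and 0.73 in KMS12, and SPIB, an ETS partner, 0.60 and 0.34. IRF2 was -0.23 and -0.17, and IRF9 -0.36 and 0.01. BATF was measured on 1 of the 2 H929 arrays, at -1.93, a difference of -2.39 from KMS12 days 4-5 (SE 0.28, limma adjusted p = 0.0181). This SE and p take the spread from the other groups, since H929 is 1 array here.

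**Figure D5:**
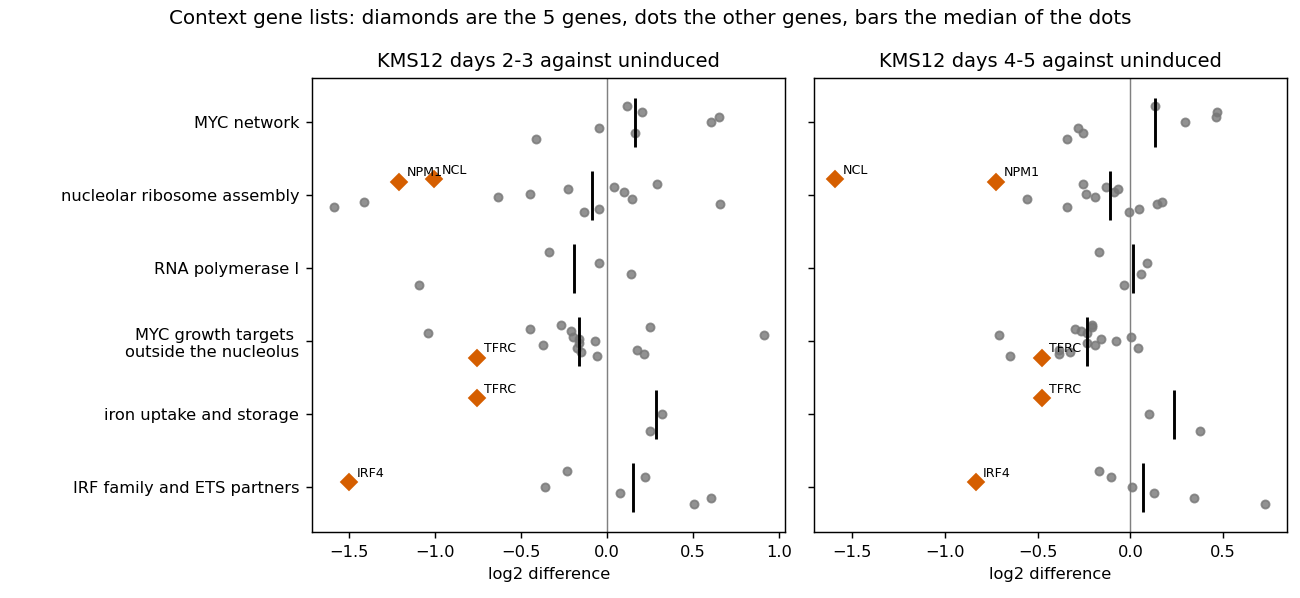
Log2 difference from uninduced (x axis) at days 2-3 and days 4-5 in KMS12 for the testable genes of 6 lists (y axis, offset to part the points); diamonds are the members, dots other genes, and bars the median of the dots. NCL and NPM1 lie left of the median of their list in both windows (medians -0.09 and -0.11), TFRC left of those of both its lists.

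Markers of other cell types stood on the other side of 0 from the members at the median in KMS12. At days 2-3 against uninduced the median was 0.53 over 8 testable markers of earlier B cells, 0.34 over 6 of T cells, 0.02 over 2 of myeloid cells and 0.50 over 4 erythroid and stromal ones. At days 4-5 the medians were 0.20, 0.35, 0.12 and 0.75, and 0 of the 20 markers passed in either window. All genes had medians of 0.05 and 0.02, the first of them above the myeloid median. Below 0 were 1 of the 2 myeloid markers at days 2-3 and 3 of the 8 earlier B cell markers at days 4-5. Ratios do not show whether such markers are expressed at all, and their part in the members' results was not tested.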

How the data were processed

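The authors deposited 1 table of log ratios, IRF4 hairpin culture (Cy5) over shluc control (Cy3), for 15246 features on 13 two-colour Lymphochip arrays. The sources used here do not give their base, background correction or normalization. The deposited values were taken as log2. Per the labels' protocols, Trizol RNA was labelled during reverse transcription. There were no dye swaps. The lowest correlation between 2 arrays was -0.33 (SKMM1 and the series 2046 uninduced array), and the direction follows the dyes in the labels.

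Gene symbols came from the platform annotation, updated through gene identifiers to a human RefSeq table: 10169 features had 1 symbol (10128 found in that table), 4 had several and 5073 none. Features measured on at least 10 of 13 arrays and 2 of 3 arrays of each KMS12 window (6879) were kept, each array was centred on their median, and features of a gene were averaged, giving 2833 named genes and 1895 unnamed features (4728). limma 3.58.1 in R 4.3.3 (lmFit, eBayes, two-sided) fitted 6 group means over 13 arrays. P-values were adjusted by Benjamini-Hochberg across every gene and unnamed feature tested, and 0.05 was the threshold. A gene needed a value in every group of a comparison. The 3-line test used 1 value per line and 4041 genes. Arrays limit precision by their number. On simulated data with 4728 genes, 50% of log2 changes of size 1 and 94% of size 2 were recovered at days 2-3. The simulated noise was independent between genes and arrays, without the deviations that real arrays or series share. These shares therefore need not hold for the real arrays.

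The members, context lists and marker lists were chosen with earlier results of these data known. Named genes are the members, up to 4 genes per context list with the smallest p for days 2-5 against uninduced, and the 5 genes most like each member measured on at least 12 arrays (NPM1, with 10, has none). SERPINA1 was named after its values were seen. Alternatives covered centring, scaling, the filter, the choice of feature, robust variance, the reference, series as a block and leaving out each array. Arrays of the same labelled series deviated together from their group means in the comparisons with uninduced (correlations of 0.15, 0.23 and 0.21 at days 2-3 and 0.22, 0.13 and 0.14 at days 4-5), so series pairs those arrays. Between days 2-3 and days 4-5 the correlations were 0.36, -0.12 and -0.07, above 0 in series 1332 alone, so series did not pair these windows throughout. The main fits left series out, so their SE and p do not use the pairing with the uninduced arrays. Series as a block was run only as an alternative. The promoter of MYC is not reported here.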

Additional observations from a re-analysis of the deposited data

Results flagged for a closer look

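On the day 7 array of series 1332 several members stood on the other side of 0 from other groups, which flagged them. MYC was 0.15 there and below 0 on every array of KMS12 days 4-5, H929 and SKMM1. NCL was 1.35 there and below 0 on every array of days 2-3, H929 and SKMM1. NPM1 was 0.30 there and below 0 on every array of days 2-3, days 4-5 and SKMM1 that measured it. TFRC was 0.18 there, and 0.19 in SKMM1, and below 0 on every array of days 2-3 and days 4-5. Day 7 and SKMM1 have 1 array each, and these differences were not tested. NPM1 feature 24014_1, too rarely measured to be tested, read 1.15 at day 5 and 0.86 at day 7 of series 1332, above its uninduced values of 0.40 and 0.39.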

How the results depend on the processing

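Of 662 alternative values for the members, 637 kept direction and side of the threshold, 20 passed it newly and 5 changed sign. The cause was not tested. Some of the 637 could not change, such as 3-line values when the array left out was not used in that test. The count therefore overstates how stable the results are. At days 2-3 against uninduced, IRF4, NPM1 and TFRC passed without centring (-1.70, -1.41, -0.96, 339 genes called) and for the induced mean against 0 (-1.32, -0.86, -0.62, 904 called). IRF4 alone passed with scaled arrays (-1.34, 2 called), with features on all 13 arrays (-1.50, 234 called, fewer genes tested) and with the most-measured feature (-1.50, 2 called). With features on all 13 arrays IRF4 also passed at days 2-5 (-1.17, 2 called) and in H929 (-1.22, 80 called). Counts of genes called at days 4-5 were 4 for the mean against 0, and for days 4-5 against days 2-3 1 with no filter and 1 with features on all 13 arrays. For H929 they were 0 with scaled arrays, 0 with no filter, 6 with single features, 4 against the series 2046 day 4 array alone and 0 without series 1332, an alternative chosen after seeing the data. For the 3 lines 1 gene was called with the uninduced mean subtracted. TFRC feature 17881_1 alone gave 0.058 over 3 lines. Leaving out 1 array gave 0 to 653 calls at days 2-3, 0 to 1 at days 4-5, 0 to 85 at days 2-5, 0 to 360 between windows, 0 to 31 for H929 and 0 to 737 over 3 lines. At days 2-3 it gave -1.64 to -1.27 for IRF4, -1.46 to -0.95 for NPM1 and -0.93 to -0.56 for TFRC, and at days 2-5 -1.24 to -1.05 for IRF4. Between windows MYC ran from -0.076 to 0.36. For H929, IRF4 ran from -1.31 to -1.13 and NCL from -0.21 to 1.19, and over 3 lines IRF4 from -1.95 to -1.31, MYC from -0.84 to -0.38, NCL from -2.03 to -1.31 and TFRC from -0.22 to 0.10. A lone array left in a group was assumed to vary like the others. With the series as a replicate block in KMS12, IRF4 at days 2-3 was -1.50 (limma adjusted p = 0.0803), and no member's call changed.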
